A study of Homo sapiens with 16 samples.

Results

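The genes described here are 9 well-known targets of the tumor suppressor p53: MDM2, CDKN1A, GADD45A, SESN1, SESN2, TP53INP1, AEN, ZMAT3 and FDXR. They were chosen by name and found by their symbols in the deposited gene tables, where each occurred once, so that 9 of the 62714 genes listed were followed. Their transcripts were measured by RNA-seq in lymphoma cells that carry Cas9 and guide RNAs.

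p53 is a transcription factor that is held at low level by MDM2, a ubiquitin ligase that marks it for degradation and is itself a p53 target, which closes a feedback loop. DNA damage, including the double-strand breaks made by Cas9, releases p53 from MDM2, and p53 then activates genes of cell cycle arrest, DNA repair, metabolic control and cell death. The acetyltransferase CREBBP, the gene targeted in this study and one often mutated in follicular lymphoma, is known to acetylate p53 and the histones at its target genes.

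The 16 libraries came from 4 established human B-cell lymphoma lines, each targeted by a lentivirus carrying Cas9 and guides against CREBBP or against the AAVS integration site, a locus used for harmless insertions, which served as control. The cells of a targeting were kept as a pool, not as a clone, and each pool gave 1 library without IL4 (baseline) and 1 after 4 h with 10 ng/ml of IL4, a cytokine that signals through STAT6. The 4 groups (AAVS or CREBBP pools, each at baseline or with IL4) thus hold 4 libraries each, with the line as the replicate. All groups received Cas9 and guides, and a line without them was not analysed here, so levels are compared between targeted pools only and not with uncut cells. SU-DHL4 is called line 1, and DOHH2 is called line 4. The titles of the samples name line 2 OCI-LY7 and line 3 SU-DHL10, whereas the cell line entries give these names the other way round, so they are called line 2 and line 3. Nothing in the labels says that the libraries of a line came from separate cultures, so p-values measure the spread between these libraries.

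The guides against CREBBP are shown because they set where the CREBBP pools were cut. In the list of reagents, 4 guides are named for CREBBP. Each is printed from 5′ to 3′ in lower case, followed in capitals by the 3 bases next to it in the genome (the PAM that Cas9 needs), and each had 1 match with an NGG PAM in GRCh38.
CREBBP_1: cttagcccactgatgaacgaTGG
CREBBP_2: ccgcaaatgactggtcacgcGGG
CREBBP_3: attgcccccctccaaacacgAGG
CREBBP_4: caggacggtacttacgtctgGGG
By the base next to the expected cut, the CREBBP guides fall in coding exons on chromosome 16, in exon 8 (CREBBP_1, chr16:3780864-3780883, minus strand), exon 2 (CREBBP_2, chr16:3850334-3850353, minus strand), exon 25 (CREBBP_3, chr16:3739580-3739599, minus strand) and exon 20 (CREBBP_4, chr16:3751711-3751730, plus strand). Only that base was placed, and the other bases of a guide may reach past the exon border.

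p53 binds paired copies of a 10-base consensus element. Promoters of 300 bases (250 before and 50 after the start) were read from RefSeq entries on GRCh38.p14, which covered 7 of the 9 genes with 14 promoters. The element was found on either strand in 3 of these 14 promoters and in 6.63% of all 35116 promoters. Only stretches that match the consensus at every base were counted, so copies with mismatches were missed. In each of the 3 there was a single exact copy. None of the 14 held a pair of exact copies up to 13 bases apart, which 10 of the 35116 promoters did. The stretches are shown because they are where the sequence next to these genes holds an exact copy of the element, given in capitals.
SESN1: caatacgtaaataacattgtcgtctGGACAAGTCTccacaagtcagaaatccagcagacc
AEN: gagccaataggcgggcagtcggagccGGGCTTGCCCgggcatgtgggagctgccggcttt
FDXR: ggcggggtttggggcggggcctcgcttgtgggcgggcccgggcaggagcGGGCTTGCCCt
The SESN1 stretch is chr6:109009003-109009062 on the minus strand, with the element starting 49 bases before 1 of its 3 annotated starts. The AEN stretch is chr15:88621280-88621339 on the plus strand (34 bases before the start) and the FDXR stretch is chr17:74872995-74873054 on the minus strand (11 bases before the start). AEN and FDXR hold the same 10 bases. A match is a description of the sequence, not evidence of binding in these cells. Elements outside these windows, and single or paired copies with mismatches inside them, were not searched, so a promoter without a match may still hold a p53 element.

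The libraries held between 19649735 and 61981976 counts, with a median of 44724334. Levels are given as CPM, a gene's counts scaled to the total of its library. The 6 B cell markers examined (MS4A1, CD79A, CD79B, PAX5, CD22 and BLK) reached 1 CPM in every group. CREBBP transcripts lay at 269.8 ± 65.4 CPM (SD, n = 4 lines) in AAVS baseline, 299.7 ± 78.8 CPM in AAVS IL4, 232 ± 49.2 CPM in CREBBP baseline and 187 ± 79.1 CPM in CREBBP IL4, so these ranges of CREBBP transcript overlapped, and each library's target is taken from its label. For the targeted pools of these lines, the study reports loss of CREBBP protein by immunoblotting, which transcript levels do not measure. The AAVS IL4 libraries stand apart. The summed level of IGHM, IGHD, CD44 and VIM was 694 to 3472 CPM in them and at most 8.36 CPM in the other 12 libraries. These 4 genes (the set-apart transcripts) were listed because earlier results of these data had found them to set the AAVS IL4 libraries apart. Their sum is therefore no independent evidence that these libraries differ. For lines 1 to 4 in turn, this sum was 1773, 876, 3472 and 694 CPM in AAVS IL4. T cell markers reached 1 CPM for 8 of 8 genes in AAVS IL4, with a sum of 19.7 to 118 CPM, and for 3 of 8 in each other group, with sums of 10.1 to 48.9 CPM, and CD2 was at 0 in all 12 libraries outside AAVS IL4. NK cell markers summed to 4.48 to 21.9 CPM in AAVS IL4 against at most 2.25 CPM elsewhere, and myeloid markers to 4.39 to 19.8 CPM against at most 2.81 CPM. Among the myeloid markers, only LYZ did not overlap (2.56 to 15.4 CPM in AAVS IL4, at most 0.049 CPM elsewhere). The ranges of ITGAM, CD14, CSF1R, FCGR3A, S100A8, S100A9 and MPO did. For plasma cells the sums were 294 to 1772 CPM in AAVS IL4 and 68.1 to 920.1 CPM elsewhere. Among these markers, PRDM1 (2.03 to 80.7 CPM in AAVS IL4, at most 0.172 CPM elsewhere) and XBP1 (68.8 to 315 CPM, at most 50.2 CPM elsewhere) did not overlap. The ranges of JCHAIN, TNFRSF17 and SDC1 did. The 3 comparisons that use the AAVS IL4 libraries rest on them wholly. In bulk RNA, fewer cells of a type and less RNA per cell cannot be told apart.

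All 9 genes were detected in every library, from a lowest count of 25 for SESN1 to a highest of 15951 for MDM2, and all 9 passed the filter on low counts in every comparison. Per kilobase of exon, in CPM per kb, AAVS baseline gave means of 24.9 ± 17.9 (SD, n = 4 lines) for TP53INP1, 18.9 ± 3.69 for MDM2, 14.6 ± 6.72 for SESN2, 10.8 ± 7.99 for GADD45A, 6.58 ± 3.25 for ZMAT3, 5.49 ± 4.89 for CDKN1A, 5.39 ± 2.73 for AEN, 0.83 ± 0.28 for FDXR and 0.376 ± 0.0643 for SESN1. From TP53INP1 to AEN, neighbours in this order overlapped in their range over the lines. SESN1 (0.333 to 0.471) lay below FDXR (0.545 to 1.21), and within each line of AAVS baseline both lay below the other 7.

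**Figure D1:**
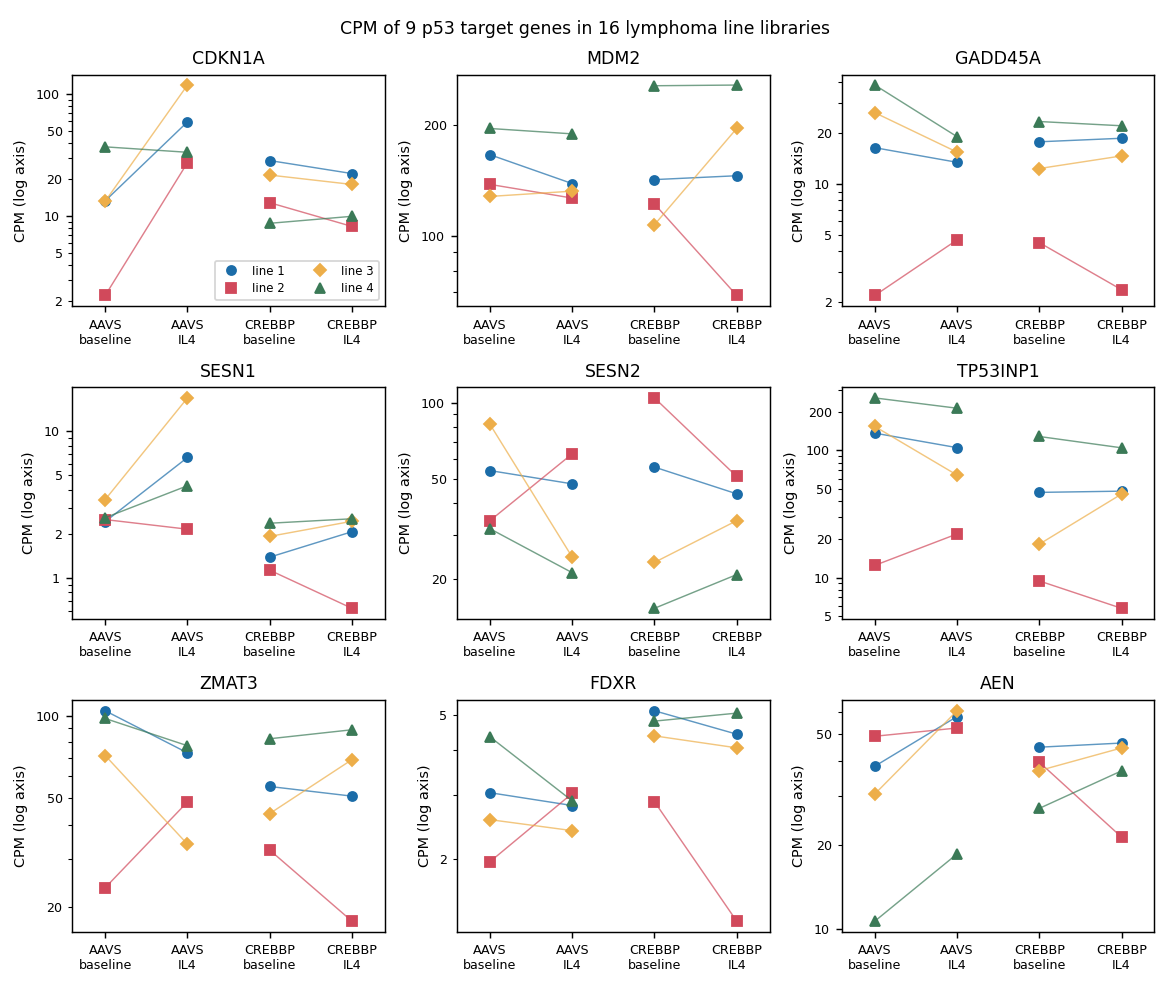
CPM (log axis) of each of the 9 p53 target genes in the 4 groups, with 1 point per library, colored and shaped by line, and a line joining the baseline and IL4 libraries of a pool. CDKN1A was highest in AAVS IL4 in lines 1 to 3, and GADD45A and TP53INP1 were lowest in line 2 in all groups.

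At baseline, where the libraries that stand apart are not used, CREBBP targeting called 0 of the 9 genes by edgeR's quasi-likelihood test at an adjusted p under 0.05, and 0% of all genes. TP53INP1 was lower in the CREBBP pool of every line there, with an adjusted p of 0.221 in edgeR's fit, while CDKN1A went opposite ways in the lines. With IL4, where the AAVS side consists of the libraries that stand apart, CDKN1A was lower in the CREBBP pools in 4 of 4 lines. It was the only one of the 9 genes called by edgeR in any of the 5 group comparisons, against 4.39% of all genes called in this one, and the call was lost in 5 of the 12 alternatives that gave a p.

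CREBBP and AAVS pools at baseline were compared to ask what targeting of CREBBP changed in pools without IL4. edgeR called 0 of the 9 genes, and the background was 0% of the 18936 genes tested, with 2422 genes at an unadjusted p under 0.05 and 1 of the 9 among them (TP53INP1). DESeq2 called 514 genes in all and 1 of the 9 (TP53INP1), and limma-voom 39 and 0. The fitted log2 fold change had a median of -0.10 over the 9 genes and -0.03 over all genes tested, with 4 genes fitted higher and 5 lower. SESN1 was the only one of the 9 whose CPM values did not overlap between the groups, which held for 1.66% of all genes tested.

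IL4 in the CREBBP pools also called 0 of the 9 genes and 0% of 18282 genes (502 at an unadjusted p under 0.05, none of the 9 among them; DESeq2 called 1 gene and limma-voom 0, neither of them one of the 9). The median fitted log2 fold change was -0.01 over the 9 genes and -0.04 over all genes. The values of the 9 genes lay between -0.28 for FDXR and 0.13 for TP53INP1. In line 2, all 9 genes were lower with IL4 (median difference -0.73 in log2(CPM + 1)), but so was most of the transcriptome of that pair, where 22.6% of 16070 expressed genes were higher and the median difference was -0.41.

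In the AAVS pools, IL4 called 0 of the 9 genes, against 2.4% of 20310 genes. Of the 9, 2 were at an unadjusted p under 0.05 (CDKN1A and AEN), as were 16% of all genes. DESeq2 called 1 of the 9 (CDKN1A) and 2062 genes in all, and limma-voom 0 and 860. The median fitted log2 fold change was -0.16 over the 9 genes and 0.01 over all genes. The summed level of the set-apart transcripts was higher in the same libraries, and their part in these values was not tested.

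Between CREBBP and AAVS pools with IL4, 1 of the 9 genes was called (CDKN1A, lower), against 4.39% of 19581 genes. The 859 genes called were 189 higher and 670 lower in the CREBBP pools, a split that became 103 and 823 with upper-quartile factors. Groups did not overlap for CDKN1A alone of the 9, and for 14.3% of all genes tested. The median fitted log2 fold change was 0.08 over the 9 genes and -0.05 over all genes. This comparison again has the AAVS IL4 libraries on one side.

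The IL4 response of the CREBBP pools minus that of the AAVS pools, tested in 1 model of the 16 libraries, called 0 of the 9 genes, against 0.638% of 21932 genes, with 1 of the 9 (CDKN1A) and 13.3% of all genes at an unadjusted p under 0.05. DESeq2 called 1 of the 9 (CDKN1A) and 1100 genes in all, and limma-voom 0 and 587.

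**Figure D2:**
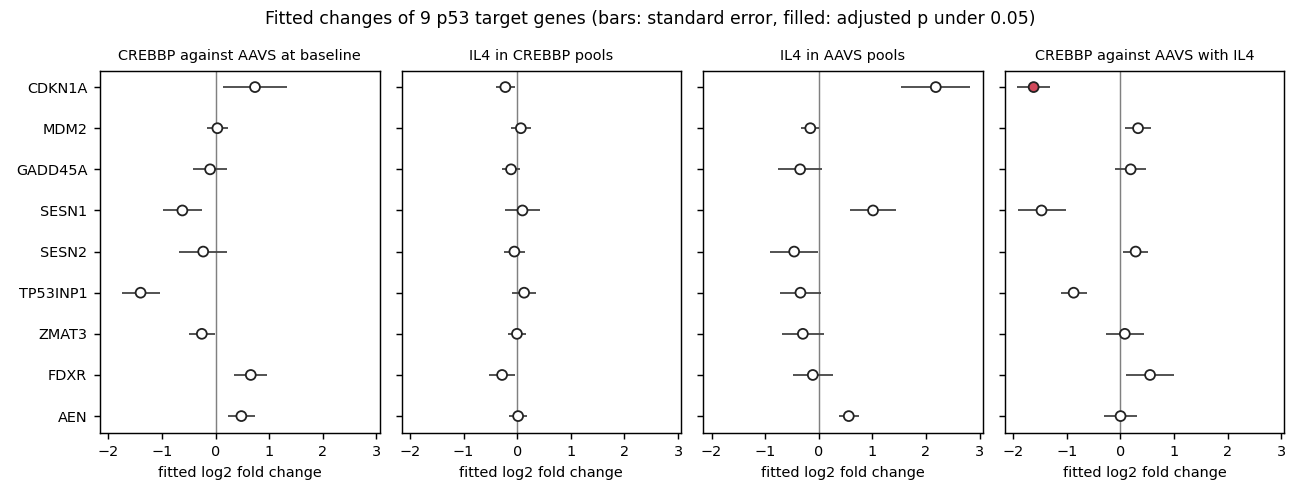
Fitted log2 fold change of the 9 p53 target genes in the 4 pairwise comparisons (points) with its standard error (bars), filled where the adjusted p was under 0.05. CDKN1A with IL4 (-1.62) is the only filled point, and the values for IL4 in the CREBBP pools all lie between -0.28 and 0.13.

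MDM2 (ENSG00000135679, chromosome 12 of GRCh38, 68808177 to 68845544, plus strand) encodes the ligase that degrades p53. For lines 1 to 4 in turn it was at 166, 138, 128 and 196 CPM in AAVS baseline, 139, 127, 132 and 189 CPM in AAVS IL4, 142, 122, 107 and 256 CPM in CREBBP baseline and 146, 68.6, 196 and 257 CPM in CREBBP IL4. Line 4 was highest in every group, and the groups overlapped throughout. Without IL4, CREBBP against AAVS pools differed by 0.03 on the log2 scale (standard error, SE, 0.19, adjusted p = 0.961 by edgeR), and with IL4 by 0.33 (SE 0.25, adjusted p = 0.427). IL4 gave -0.16 (SE 0.17) in the AAVS pools and 0.07 (SE 0.18) in the CREBBP pools, and none of the 4 comparisons passed the test. Its baseline value turned negative without line 4 (-0.10) and with upper-quartile factors (-0.048), where all genes shifted to a median of -0.11. Part of its exons overlaps other annotated genes (a lncRNA on the opposite strand over 9.45% of the exon length and a pseudogene on the same strand over 5.29%), and reads there cannot be assigned with certainty.

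CDKN1A (ENSG00000124762, chromosome 6, 36676460 to 36687337, plus strand) encodes p21, the inhibitor of cyclin-dependent kinases that carries p53-driven cell cycle arrest. For lines 1 to 4 it was at 13.3, 2.23, 13.3 and 37.0 CPM in AAVS baseline and at 59.3, 27.4, 119 and 33.4 CPM in AAVS IL4. It was at 28.6, 12.9, 21.7 and 8.72 CPM in CREBBP baseline and at 22.3, 8.22, 18.2 and 9.95 CPM in CREBBP IL4. All 4 AAVS IL4 values thus lay above all 4 CREBBP IL4 values, while the groups of the other 3 pairwise comparisons overlapped. DINOL, a lncRNA on the opposite strand, shares 4.87% of the exon length of CDKN1A.

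At baseline, without the AAVS IL4 libraries, CDKN1A went opposite ways in the lines. In log2(CPM + 1), the CREBBP pool was higher by 1.04, 2.10 and 0.67 in lines 1, 2 and 3, and it fell by 1.97 in line 4. The fitted log2 fold change was 0.73 (SE 0.59, adjusted p = 0.632), and it ranged from 0.11 to 1.53 over the alternatives.

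With IL4, the CREBBP pools had a log2 fold change of CDKN1A of -1.62 against the AAVS pools (SE 0.30, 0.325-fold, adjusted p = 0.0355 by edgeR's quasi-likelihood test, lower in 4 of 4 lines). The adjusted p was 0.107 without the line as a block, 0.0538 with all 16 libraries in 1 fit, and 0.125, 0.124 and 0.113 without lines 1, 3 and 4, within a range of 7.97e-05 to 0.125 over the alternatives. The fitted value stayed between -1.83 and -1.33. Within the AAVS pools, IL4 gave a log2 fold change of 2.18 (SE 0.64, adjusted p = 0.179), higher in 3 of 4 lines and slightly lower in line 4. The adjusted p was 0.00237 by DESeq2 and 0.046 without line 4, within a range of 0.00237 to 0.575. Within the CREBBP pools the IL4 value was -0.22 (SE 0.17, adjusted p = 0.924). The CREBBP pools' IL4 response minus that of the AAVS pools was -2.28 (SE 0.66, adjusted p = 0.174), negative in 3 of 4 lines. DESeq2 gave an adjusted p of 0.00774 for it, and without line 4 it was -3.21 (adjusted p = 0.0183), in a range of 1.87e-07 to 0.946. In AAVS IL4, the libraries of lines 3 and 1 were highest both in CDKN1A (119 and 59.3 CPM) and in the summed set-apart transcripts (3472 and 1773 CPM). Lines 2 and 4 ran the other way, since line 2 had the higher sum (876 against 694 CPM) but less CDKN1A (27.4 against 33.4 CPM). The part of the set-apart transcripts in the CDKN1A values was not tested.

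GADD45A (ENSG00000116717, chromosome 1, 67685201 to 67688334, plus strand) encodes a stress protein of growth arrest and DNA repair. For lines 1 to 4 it was at 16.4, 2.18, 26.4 and 38.5 CPM in AAVS baseline, 13.4, 4.66, 15.4 and 19.0 CPM in AAVS IL4, 17.7, 4.49, 12.3 and 23.4 CPM in CREBBP baseline and 18.6, 2.36, 14.6 and 22.1 CPM in CREBBP IL4. Line 2 was lowest in each group, and the groups overlapped. Fitted log2 fold changes were -0.10 (SE 0.31) for CREBBP against AAVS at baseline, 0.19 (SE 0.29) with IL4, -0.35 (SE 0.40) for IL4 in the AAVS pools and -0.12 (SE 0.17) for IL4 in the CREBBP pools, with adjusted p of 0.664 to 0.94 by edgeR. The baseline value changed sign without line 3 (0.17) and without line 4 (0.10).

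SESN1 (ENSG00000080546, chromosome 6, 108984309 to 109094846, minus strand) and SESN2 encode sestrins, stress proteins that restrain the growth kinase mTORC1. SESN1 was scarce. It was at 2.42, 2.5, 3.43 and 2.58 CPM in AAVS baseline, 6.63, 2.15, 16.9 and 4.25 CPM in AAVS IL4, 1.39, 1.13, 1.92 and 2.36 CPM in CREBBP baseline and 2.07, 0.621, 2.44 and 2.53 CPM in CREBBP IL4. At baseline, every AAVS pool lay above every CREBBP pool, though the nearest values were 2.42 and 2.36 CPM. The log2 fold change was -0.62 (SE 0.36, adjusted p = 0.5), lower in 4 of 4 lines. With IL4 it was -1.47 (SE 0.45, adjusted p = 0.1), again lower in 4 of 4 lines, with the groups overlapping in line 2 of the AAVS pools. DESeq2 gave an adjusted p of 0.00911 there and the fit of all 16 libraries 0.0154, within a range of 0.00911 to 0.331. IL4 in the AAVS pools gave 1.01 (SE 0.43, adjusted p = 0.316), higher in 3 of 4 lines. The high values of SESN1, 16.9 and 6.63 CPM, were in lines 3 and 1 of AAVS IL4, the libraries with most of the set-apart transcripts, whose part was not tested. In AAVS IL4, line 2 had more of those transcripts than line 4 (876 against 694 CPM) but less SESN1 (2.15 against 4.25 CPM). A lncRNA on the opposite strand shares 4.99% of the exon length of SESN1.

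SESN2 (ENSG00000130766, chromosome 1, 28259518 to 28282491, plus strand), which ATF4 also controls, was at 53.9, 34.2, 82.0 and 31.7 CPM in AAVS baseline and 47.7, 62.8, 24.5 and 21.3 CPM in AAVS IL4. It was at 55.6, 104, 23.4 and 15.4 CPM in CREBBP baseline and at 43.6, 51.1, 34.1 and 20.9 CPM in CREBBP IL4. The lines moved apart: in log2(CPM + 1), the CREBBP pool at baseline was higher by 1.58 in line 2, and it fell by 1.77 in line 3 and by 0.999 in line 4, with little difference (0.045) in line 1. The fitted log2 fold change was -0.23 (SE 0.44, adjusted p = 0.854), and it turned positive without line 3 (0.25) and without line 4 (0.06). With IL4 it was 0.28 (SE 0.23, adjusted p = 0.462).

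TP53INP1 (ENSG00000164938, chromosome 8, minus strand) encodes a nuclear protein that promotes p53-driven cell death and autophagy. It was at 137, 12.5, 154 and 258 CPM in AAVS baseline and 105, 22, 63.9 and 214 CPM in AAVS IL4, against 46.7, 9.42, 18.3 and 128 CPM in CREBBP baseline and 47.8, 5.74, 45.3 and 105 CPM in CREBBP IL4. Line 2 was low in all groups, which overlapped, but within each line the CREBBP pool was below the AAVS pool, with and without IL4.

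For TP53INP1 without IL4, the CREBBP pools had a log2 fold change of -1.40 (SE 0.35, 0.379-fold, adjusted p = 0.221 by edgeR), lower in 4 of 4 lines. The differences in log2(CPM + 1) ran from -3.01 in line 3 to -0.37 in line 2, and line 1 was at -1.53. DESeq2 gave an adjusted p of 0.00971, the fit without a filter 3.17e-06, the fit without line 2 0.024 and limma-voom 0.0736, in a range of 3.17e-06 to 1. Without line 3 the value was -0.94, the smallest of any alternative. With IL4 it was -0.87 (SE 0.24, adjusted p = 0.0845), lower in 4 of 4 lines. DESeq2 gave 0.00514 and upper-quartile factors 0.0441, in a range of 0.00514 to 0.566, and upper-quartile factors also moved the median of all genes to -0.27. IL4 itself gave -0.34 (SE 0.38) in the AAVS pools and 0.13 (SE 0.23) in the CREBBP pools. NDUFAF6 on the opposite strand shares 3.99% of the exon length of TP53INP1.

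AEN (ENSG00000181026, chromosome 15, 88621337 to 88632281, plus strand) encodes a nuclease of p53-driven cell death. It was at 38.5, 49.3, 30.6 and 10.7 CPM in AAVS baseline, 58.0, 52.7, 60.8 and 18.6 CPM in AAVS IL4, 45.0, 39.8, 37.1 and 27.1 CPM in CREBBP baseline and 46.6, 21.4, 44.7 and 37.0 CPM in CREBBP IL4. In the AAVS pools it was higher with IL4 in 4 of 4 lines, with a log2 fold change of 0.56 (SE 0.18, adjusted p = 0.224 by edgeR), and the groups overlapped. CREBBP against AAVS gave 0.48 (SE 0.25, adjusted p = 0.46) at baseline and 0.00 (SE 0.30, adjusted p = 0.996) with IL4. The latter was negative under 7 of 13 alternatives, down to -0.41 without line 4.

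ZMAT3 (ENSG00000172667, chromosome 3, 178960121 to 179072215, minus strand) encodes an RNA-binding zinc finger protein. It was at 104, 23.5, 71.6 and 97.8 CPM in AAVS baseline, 73.2, 48.4, 33.9 and 77.8 CPM in AAVS IL4, 55.1, 32.3, 43.9 and 82.4 CPM in CREBBP baseline and 50.8, 17.7, 69.1 and 88.9 CPM in CREBBP IL4. At baseline the CREBBP pool was lower in 3 of 4 lines, with a log2 fold change of -0.26 (SE 0.24, adjusted p = 0.68). With IL4 the value was 0.08 (SE 0.35, adjusted p = 0.9).

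FDXR (ENSG00000161513, chromosome 17, 74862497 to 74873031, minus strand) encodes the mitochondrial ferredoxin reductase. It was at 3.05, 1.96, 2.57 and 4.35 CPM in AAVS baseline, 2.81, 3.03, 2.39 and 2.89 CPM in AAVS IL4, 5.14, 2.88, 4.38 and 4.81 CPM in CREBBP baseline and 4.43, 1.34, 4.06 and 5.07 CPM in CREBBP IL4. At baseline it was higher in the CREBBP pool in 4 of 4 lines, in the opposite direction to TP53INP1 and SESN1, with a log2 fold change of 0.66 (SE 0.31, adjusted p = 0.41). With IL4 it was 0.55 (SE 0.44, adjusted p = 0.453).

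**Figure D3:**
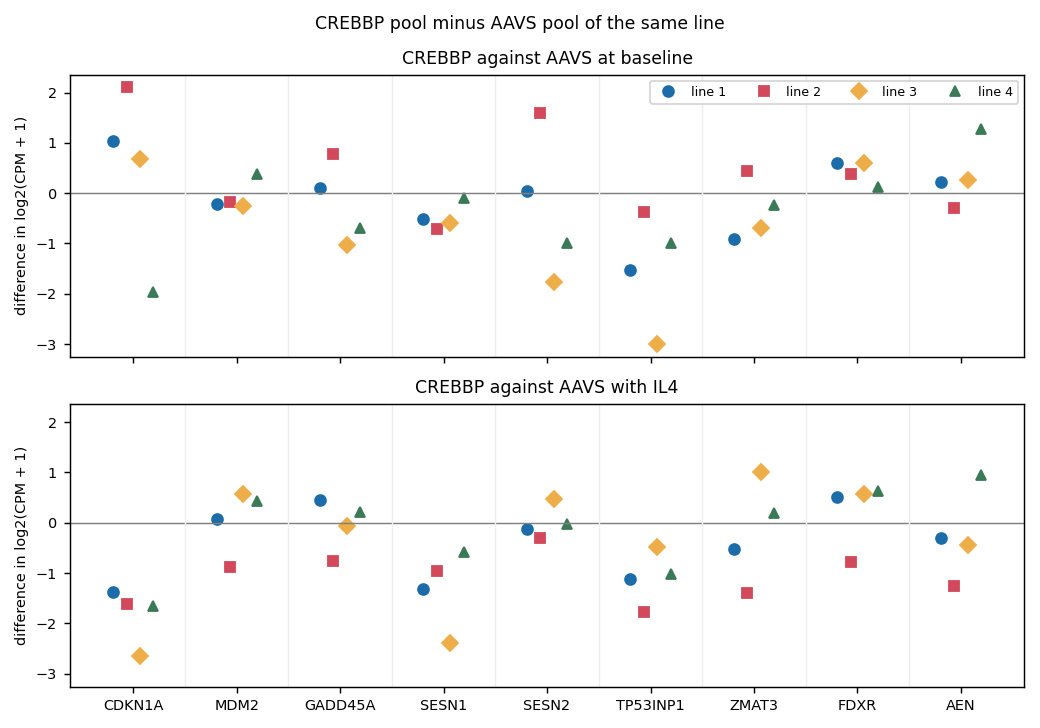
Difference in log2(CPM + 1) between the CREBBP pool and the AAVS pool of the same line, at baseline (top) and with IL4 (bottom), with 1 point per line for each of the 9 genes. At baseline CDKN1A lies between 0.67 and 2.10 in lines 1 to 3 and at -1.97 in line 4, and with IL4 all of its points are below 0, as are all points of SESN1 and TP53INP1 in both panels.

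To describe how the genes differed between the cell lines, each line was set against the mean of the other 3 with the group as a term. In line 2, edgeR called 6 of the 9 genes, against 32.5% of 21932 genes, of which 5 were lower and 1 was higher. TP53INP1 had a log2 difference of -2.94 (SE 0.32, adjusted p = 8.79e-06), GADD45A of -2.45 (SE 0.30, adjusted p = 2.58e-05), ZMAT3 of -1.19 (SE 0.28, adjusted p = 0.00474), SESN1 of -1.13 (SE 0.33, adjusted p = 0.0182) and MDM2 of -0.57 (SE 0.17, adjusted p = 0.0199). SESN2 was higher by 0.92 (SE 0.31, adjusted p = 0.0339). CDKN1A (-1.29, adjusted p = 0.0544), FDXR (-0.70, adjusted p = 0.0639) and AEN (0.18, adjusted p = 0.595) did not pass in edgeR's fit. DESeq2 called 8 of the 9 and 8398 genes in all, CDKN1A (adjusted p = 0.0144) and FDXR (adjusted p = 0.015) among them. Low GADD45A, at 2.18 to 4.66 CPM in line 2 against 12.3 to 38.5 CPM in the other lines, did not overlap, whereas TP53INP1, at 5.74 to 22 CPM in line 2, overlapped with the 18.3 CPM of line 3 in CREBBP baseline.

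Line 4 gave 5 of the 9 genes called, against 29.8% of the genes. TP53INP1 was higher by 1.95 on the log2 scale (SE 0.24, adjusted p = 0.000109), GADD45A by 1.12 (SE 0.24, adjusted p = 0.00369) and MDM2 by 0.55 (SE 0.16, adjusted p = 0.0211). SESN2 fell by 1.41 (SE 0.34, adjusted p = 0.00782) and AEN by 1.13 (SE 0.26, adjusted p = 0.00537) relative to the other lines. ZMAT3 (0.61, adjusted p = 0.0743) did not pass, but it did with DESeq2 size factors (adjusted p = 0.0491) and by DESeq2 (adjusted p = 0.042), so that each gave 6 of the 9. Line 4 thus combined the highest MDM2, TP53INP1 and GADD45A with the lowest SESN2 and AEN by mean level over its libraries. In line 1 all 9 genes were fitted higher, with a median log2 difference of 0.48 over the 9 and -0.04 over all genes, but edgeR called 0 of the 9, against 6.57% of the genes (3 of the 9 and 25.1% of all genes at an unadjusted p under 0.05, and 0 of the 9 and 3294 genes called by DESeq2). In line 3, 0 of the 9 were called, against 2.7% of the genes, with 2 of the 9 and 17.6% of all genes at an unadjusted p under 0.05. DESeq2 called 1 of the 9 (SESN1) and 1581 genes in all.

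Without the AAVS IL4 libraries, 5 of the 9 were called in line 2 (32.6% of 21181 genes), where SESN1 (adjusted p = 0.0629) and SESN2 (0.0906) no longer passed and FDXR did (-1.06, adjusted p = 0.0083), and 6 were called in line 4 (31.7%), where ZMAT3 also passed (0.67, adjusted p = 0.031). In lines 1 and 3 the count was again 0, against 11.3% and 5.99% of the genes. The 4 libraries of a line come from the same line, so these p-values measure the spread between libraries and not between cultures.

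**Figure D4:**
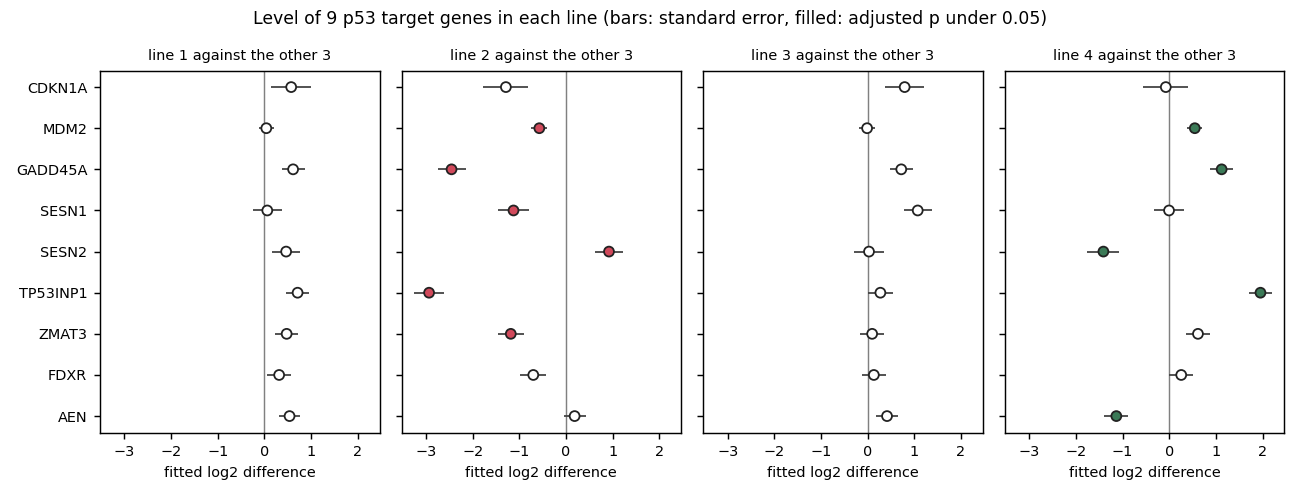
Fitted log2 difference of each line from the mean of the other 3 lines for the 9 genes (points) with its standard error (bars), filled where the adjusted p was under 0.05. Line 2 holds the lowest values (TP53INP1 at -2.94 and GADD45A at -2.45), and line 4 shows TP53INP1 at 1.95 beside SESN2 at -1.41.

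The 9 genes did not move as 1 block across libraries. Over the 36 pairs of genes and the 16 libraries, Pearson's r of log2 CPM had a median of 0.14 and ran from -0.53 (MDM2 with SESN2) to 0.87 (GADD45A with TP53INP1). With the mean of each line removed, the median was 0.07 and the range -0.75 (SESN1 with FDXR) to 0.83 (GADD45A with SESN2). In the 12 libraries without AAVS IL4 and with the line means removed, GADD45A and SESN2 were at 0.94, TP53INP1 and ZMAT3 at 0.69, and TP53INP1 and FDXR at -0.85, around a median of 0.00. TP53INP1, GADD45A and ZMAT3, which were high in line 4 and low in line 2, gave r between 0.83 and 0.87 with each other over the 16 libraries, and between 0.40 and 0.56 with the line means removed. These values describe the libraries, which share lines, pools and sequencing, and carry no p-value.

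Among 16061 expressed genes, those whose log2 CPM followed CDKN1A most closely over the 16 libraries were CCL4 (r = 0.94), IER3 (0.94), TEX14 (0.92), SH3PXD2A (0.92) and DUSP8 (0.92), with r of 0.85 to 0.92 when the AAVS IL4 libraries were left out. The other 8 p53 targets were left out of this comparison. For MDM2 they were ATP13A3 (0.96), UBE3A (0.96), MYCBP2 (0.96), CUL3 (0.95) and ZC3H13 (0.95), with r of 0.96 to 0.99 without AAVS IL4. All these genes were picked by r over the 16 libraries, so r in a part of the same libraries is no separate check. Line means were not removed, so differences between lines enter these values.

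Other genes of the pathway were followed as lists. Of 30 further p53 targets, 23 were tested at baseline and 0 were called between CREBBP and AAVS pools, with a median fitted log2 fold change of 0.07 (-0.02 with upper-quartile factors), and of 24 tested for IL4 in the CREBBP pools 0 were called, with a median of 0.02. In the 3 comparisons with the AAVS IL4 libraries, the genes at an adjusted p under 0.05 were 1 of 25 for IL4 in the AAVS pools (2.4% of all genes), 2 of 25 between the pools with IL4 (4.39%) and 0 of 26 for the difference in response (0.638%). They were PLK2, a polo-like kinase gene, and, between the pools with IL4, also the autophagy gene DRAM1. In these comparisons, both genes passed the filter on low counts only through the AAVS IL4 libraries, where they were high, so the counts support no difference of the list. PLK2 was at 1.09 to 9.47 CPM in AAVS IL4, at 0.049 to 0.164 CPM in AAVS baseline and at most 0.253 CPM in CREBBP IL4. DRAM1 was at 0.324 to 1.98 CPM in AAVS IL4 and at most 0.0232 CPM in CREBBP IL4. FAS, the death receptor gene, named here after its values were seen, was at 28.1, 20.0, 51.1 and 32.9 CPM in AAVS IL4, whereas in the other groups it was under 1 CPM in lines 1, 3 and 4 and at 15.0 to 23.4 CPM in line 2. FAS did not pass the test for IL4 in the AAVS pools (adjusted p = 0.153 by edgeR) or between the pools with IL4 (adjusted p = 0.082). Between the pools with IL4, BBC3 (-1.48, adjusted p = 0.0654) and PLK3 (-1.28, adjusted p = 0.065) came closer to passing than FAS. They were not near 0 elsewhere: BBC3 was at 1.05 to 6.62 CPM and PLK3 at 1.71 to 8.67 CPM outside AAVS IL4. Of the 25 genes tested between the pools with IL4, 16 were fitted higher and 9 lower in the CREBBP pools, while 47.8% of all genes were fitted higher. With upper-quartile factors the split of the list was 12 higher and 13 lower. PLK2, DRAM1 and FAS were thus near 0 in most libraries outside AAVS IL4, and the part of the set-apart transcripts in their levels was not tested.

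Of 17 genes for regulators of p53, 0 were called at baseline and 0 for IL4 in the CREBBP pools. With the AAVS IL4 libraries in the comparison, 1 of 17 was at an adjusted p under 0.05 for IL4 in the AAVS pools (2.4% of all genes), 2 between the pools with IL4 (4.39%) and 1 for the difference in response (0.638%). HIPK2, a kinase that phosphorylates p53, was among them in each case, at 154, 50.1, 338 and 122 CPM in AAVS IL4 and at most 0.569 CPM in the other 12 libraries. In the first 2 of these comparisons it passed the filter only through the AAVS IL4 libraries. The difference in response of HIPK2 had an adjusted p of 0.000291 by edgeR. CHEK1, a checkpoint kinase gene, was higher in the CREBBP pools with IL4 (log2 fold change 1.36, SE 0.21, adjusted p = 0.0237 by edgeR). The set-apart transcripts were high in the same 4 libraries, and their part in these levels was not tested.

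The 18 cell cycle genes that p21 is known to lower through the DREAM complex were fitted higher in the CREBBP pools for 18 of 18 genes at baseline (median 0.48, 0 called) and for 18 of 18 with IL4 (median 1.27, 2 called, against 4.39% of all genes), while 47.8% of all genes were fitted higher in each comparison. The genes called with IL4 were CCNB1 (1.41, SE 0.26, adjusted p = 0.0355) and CCNB2 (1.24, SE 0.27, adjusted p = 0.0482), the B-type cyclins. For lines 1 to 4, CCNB1 was at 69.2, 124, 42.5 and 93.4 CPM in AAVS IL4 and at 134, 208, 156 and 181 CPM in CREBBP IL4, and the groups did not overlap, as for 14.3% of all genes in this comparison. With upper-quartile factors the baseline count was 17 of 18 and the median 0.39, and with IL4 it was still 18 of 18, with 1 gene called (5 with DESeq2 size factors). Within the AAVS pools, 18 of 18 were fitted lower with IL4 (median -0.73, 0 called). The AAVS IL4 libraries with the lowest CCNB1, those of lines 3 and 1 (42.5 and 69.2 CPM), had the highest sums of set-apart transcripts (3472 and 1773 CPM). Lines 2 and 4 ran the other way, since line 2 had more CCNB1 (124 against 93.4 CPM) and also the higher sum (876 against 694 CPM). The part of the set-apart transcripts in the cell cycle values was not tested. The fitted value of CDKN1A had the opposite sign with IL4 (-1.62) and for IL4 in the AAVS pools (2.18), and the same sign at baseline (0.73).

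The 12 stress genes of ATF4, which also drives SESN2, gave 0 called at baseline (of 11 tested) and 0 for IL4 in the CREBBP pools. PHGDH, the first enzyme of serine synthesis, was the 1 gene of the 12 at an adjusted p under 0.05 for IL4 in the AAVS pools (2.4% of all genes), where it passed the filter only through the AAVS IL4 libraries. It was at 10.5, 1.06, 31.2 and 38.0 CPM in AAVS IL4, at most 0.0191 CPM in AAVS baseline and at most 0.844 CPM in the CREBBP pools. It was also the 1 of 12 called for the difference in response (adjusted p = 0.00869 by edgeR, 0.638% of all genes), and 0 of 12 were called between the pools with IL4. The set-apart transcripts, the T and NK cell markers and, among the myeloid markers, LYZ were high in the same AAVS IL4 libraries. Their part in the PHGDH levels was not tested.

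**Figure D5:**
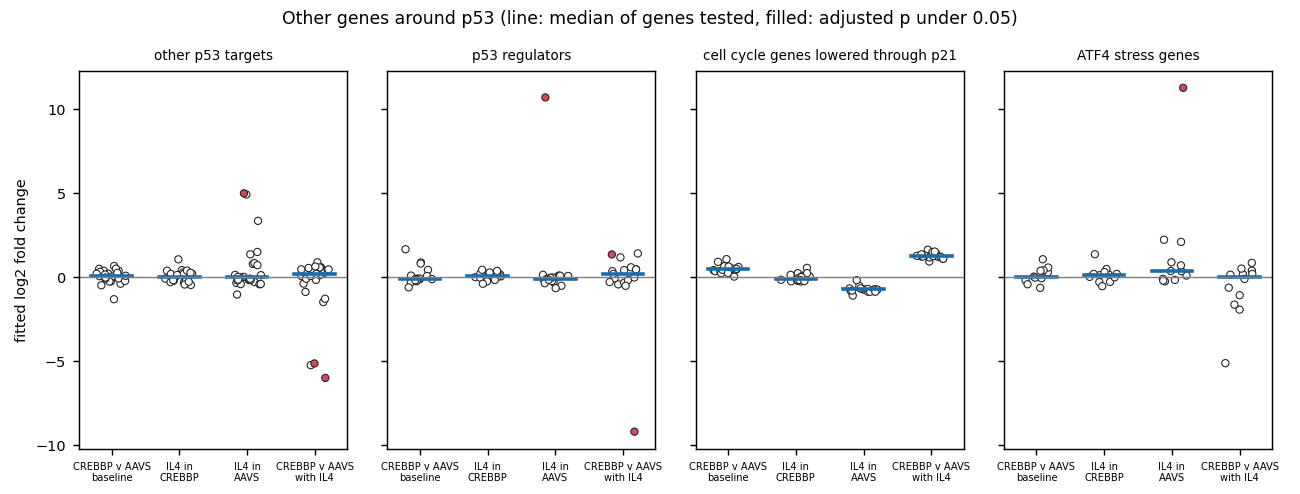
Fitted log2 fold change of the genes tested in 4 lists around p53 (other p53 targets, regulators of p53, cell cycle genes lowered through p21, ATF4 stress genes) in the 4 pairwise comparisons, with 1 point per gene, a line at the median and filled points where the adjusted p was under 0.05. The cell cycle genes lie above 0 for CREBBP against AAVS (medians 0.48 and 1.27, with 1 gene below 0 at baseline under upper-quartile factors) and below 0 for IL4 in the AAVS pools (median -0.73).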

How the data were processed

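Total RNA from pools of 4 lymphoma lines was sequenced by the authors as 16 libraries. The submitters' processing notes name cutadapt 2.3, FastQC 0.11.8, MultiQC 1.7, STAR 2.7.8a, RSEM 1.3.3 and the build GRCh38. The values the authors deposited are estimated counts of each gene, all of them whole numbers and not normalized. No value had to be rounded here, and whether they were rounded before deposit is not known. The study states that its lines were sequenced by the methods it gives for primary B cells, in which the counts of technical replicates of a treatment were averaged, so a library here may be such an average. Use of the strand in counting is not given in the sources used here. Of 62714 genes, 62639 (99.88%) matched GENCODE release 44, which gave positions and exon lengths.

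Fits were made with edgeR 4.0.16, limma 3.58.1 and DESeq2 1.42.0 under R 4.3.3, and the other steps with pandas 2.3.3, numpy 2.4.6 and matplotlib 3.10.9 under Python 3.11.15. Genes were kept by filterByExpr, scaled with TMM factors, and tested by the quasi-likelihood method of edgeR, blocking on the line, with Benjamini-Hochberg adjustment over all kept genes and a threshold of 0.05. SE is the absolute log2 fold change divided by the root of F. The difference in response was fitted over 16 libraries with a term for each pool, and each line was set against the mean of the other 3 with the group as a term. Line by line differences are on log2(CPM + 1). Correlations are on log2 CPM with a prior count of 2, and likeness was sought among genes at 1 CPM or more in at least 4 libraries. The fits were tested on simulated data.

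Line numbers pair the libraries, since the libraries of a number are of one cell line. Their deviations from the group means correlated with medians of 0.598, 0.717, 0.294 and 0.693 in lines 1 to 4 (lowest -0.161, in line 3). Between lines the median was -0.276, but subtracting the mean of the 4 lines of a group pulls these values below 0 by itself. That median is therefore no independent background for the pairing. No pair of libraries in a group looked like one library deposited again (chi-square per degree of freedom at least 98.7).

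The 9 genes and all lists were chosen with earlier results of these data known. All 9 were named in every comparison. From other lists, genes with an adjusted p under 0.05 were named (all up to 6, otherwise the 3 with the largest change in each direction), as were the 5 genes most like CDKN1A and MDM2. The alternatives were other scaling factors (of DESeq2, and upper-quartile), other filters (none, or a minimum of 10 counts in each library), no replicate block, DESeq2's Wald test, limma-voom, all 16 libraries in 1 fit, each line left out in turn, and the mean of the line differences. Scaling of the further lists was varied after the data had been seen. Some items of the fixed lists and of the reagents are not reported here.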

Additional observations from a re-analysis of the deposited data

Results flagged for a closer look

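In AAVS baseline, SESN1 in line 3 was at 3.43 CPM, while lines 1, 2 and 4 lay between 2.42 and 2.58 CPM. Its gap to the nearest of the others was a larger share of the range of the 4 values than Dixon's 95% critical value allows. Chance alone gives such a gap in about 1 in 20 groups of 4.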

How the results depend on the processing

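With 4 lines per group, the counts of called genes moved with most settings, and the causes were not tested. For IL4 in the AAVS pools, 488 genes were called as reported, 1851 without a filter, 25 with at least 10 counts in every library, 2062 by DESeq2, 860 by limma-voom, 1270 with all 16 libraries and 64 (without line 1) to 1035 (without line 2) with a line left out, among them 0 of the 9 genes, 1 without a filter, 1 by DESeq2 and 0 to 1 with a line left out. For IL4 in the CREBBP pools the 0 genes became 40 without a filter and 1 by DESeq2. At baseline the 0 genes became 586 without a filter, 514 by DESeq2, 39 by limma-voom and 0 to 515 (without line 2) with a line left out, and of the 9 genes 1 was called without a filter, 1 by DESeq2 and 0 to 1 with a line left out. Between the pools with IL4, 859 became 3466 without a filter, 4154 by DESeq2, 2032 by limma-voom, 4393 with all 16 libraries and 25 (without line 3) to 2547 (without line 2) with a line left out, and the 1 of 9 became 2 with upper-quartile factors, 3 by DESeq2 and 0 (without line 1, 3 or 4) to 1. For the difference in response, 140 became 1191 without a filter, 69 with at least 10 counts, 1100 by DESeq2, 587 by limma-voom and 16 to 264 with a line left out, and the 0 of 9 became 1 without a filter, 1 by DESeq2 and 0 to 1 with a line left out. In line 3 against the others, DESeq2 called 1 of 9 in place of 0.

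Without the replicate block, 467 genes were called for IL4 in the AAVS pools, 540 between the pools with IL4 (0 of the 9 in place of 1) 2 for the difference in response and 0 in each of the other comparisons. The sign without the block also turned for values near 0, to 0.060 for ZMAT3 and -0.0012 for TP53INP1 (IL4 in the CREBBP pools), -0.11 for AEN (pools with IL4) and 0.012 for FDXR (difference in response).

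None of the other values that changed sign had passed the test. Upper-quartile factors moved the median of all genes to -0.11 at baseline, -0.27 with IL4 and -0.10 for the difference, and no filter moved it to -0.19 and -0.35 in the first 2. For IL4 in the CREBBP pools, ZMAT3 was at 0.022 with DESeq2 size factors, 0.023 by DESeq2, 0.014 by limma-voom and 0.055 with all 16 libraries, and the mean difference of AEN was -0.030. MDM2 at baseline was at -0.048 (upper-quartile), -0.013 (no filter) and -0.067 (mean difference). With IL4, AEN was at -0.021 (DESeq2 size factors), -0.020 (DESeq2), -0.21 (upper-quartile), -0.095 (at least 10 counts) and -0.26 (mean difference), GADD45A at -0.023 (upper-quartile) and -0.043 (mean difference), and ZMAT3 at -0.13, -0.012 and -0.18 (upper-quartile, at least 10 counts, mean difference). FDXR in the difference was at 0.013 by limma-voom. With a line left out, the ranges that crossed 0 were -0.39 to 0.050 for FDXR (IL4 in the AAVS pools), -0.13 to 0.12 for ZMAT3, -0.17 to 0.30 for TP53INP1, -0.052 to 0.24 for SESN1, -0.20 to 0.11 for SESN2, -0.10 to 0.21 for MDM2 and -0.11 to 0.16 for AEN (IL4 in the CREBBP pools), -0.10 to 0.11 for MDM2, -0.44 to 0.17 for GADD45A and -0.81 to 0.25 for SESN2 (baseline), -0.41 to 0.28 for AEN and -0.30 to 0.43 for ZMAT3 (with IL4), and -0.43 to 0.20 for FDXR, -0.087 to 1.05 for SESN2, -0.11 to 0.99 for TP53INP1 and -0.078 to 0.87 for ZMAT3 (difference). Between lines, values without AAVS IL4 were 0.046 for MDM2 in line 3 and 0.20 for CDKN1A and SESN1 in line 4, SESN2 in line 3 was at -0.0096 with DESeq2 size factors and -0.011 by DESeq2, and SESN1 in line 4 at 0.0017 with DESeq2 size factors.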
